A study of Danio rerio with 8 samples.

Results

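Genes of the black pigment cell were read in RNA of sorted zebrafish eosinophils. They were *mitfa*, *tyr*, *tyrp1a*, *tyrp1b*, *dct*, *pmela*, *oca2*, *slc24a5*, *slc45a2* and *mlpha*, 10 of the 30838 genes listed in both expression tables. They were selected on their TPM in the *cebpb*-/- and *cebpb*+/+ libraries, as known melanophore genes whose values there had already been seen, so the *cebpb* comparison is given for them as a description with no test. The rule of choice names the *cebpb*-/- cells and no *cebp1* difference, so the *cebp1* comparison was tested. Earlier results of these data were known at the choice, so that test may not be fully independent of them.

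The study sorted eGFP+ cells from *Tg(eslec:eGFP)* larvae of the AB strain at 7 dpf (days post-fertilization). In that line, a promoter fragment of the lectin gene *eslec* drives eGFP in eosinophils, granulocytes of the innate immune system. The groups were *cebp1*-/- (allele smu1) and *cebp1*+/+, and *cebpb*-/- (allele szy7) and *cebpb*+/+, where *cebp1* and *cebpb* encode transcription factors of the C/EBP family and all 4 groups carried the transgene. Each group had 2 libraries, each made by amplifying the RNA of about 500 cells from a different pool of ground and digested whole larvae, so that any tissue of the larva could enter the suspension. The protocol for these libraries names sorting on eGFP and no further gate. The study's flow cytometry summary states, for all its samples, a gate that also excluded autofluorescent cells. Whether that gate was used in these sorts is not stated with the protocol. Values are TPM, an expression unit in which read numbers are corrected for gene length and scaled to the same sum in each library. TPM keep no depth, so the reads behind a value are unknown and no counting interval can be given. Because each value comes from a bulk sample, fewer cells of a type and less RNA per cell cannot be told apart.

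Melanophores are the black pigment cells of fish, and they arise from the neural crest, the embryonic population that also gives rise to iridophores and xanthophores. They make melanin from tyrosine inside melanosomes, organelles related to lysosomes, with enzymes, a fibril protein and membrane transporters that this cell type shares with the retinal pigment epithelium of the eye. In these cells melanosomes are moved along the cytoskeleton to darken or lighten the skin.

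The pigment genes were detected in all 8 libraries. Their summed level was 4179 and 5771 TPM in *cebp1*+/+ against 1973 and 2954 TPM in *cebp1*-/-, in the order of replicates 1 and 2 that is kept throughout. In the other table it was 4642 and 5370 TPM in *cebpb*+/+ against 27415 and 16887 TPM in *cebpb*-/-. As deposited, the groups did not overlap in either table, and the 2 *cebpb*-/- libraries stood above the other 6. Of all genes tested, 30.9% were higher in *cebpb*-/- and 61% lower in *cebp1*-/- without overlap. After the scaling described below, 3 of the 10 genes stayed lower without overlap in *cebp1*-/-, where 23.3% of all genes were. As a share of all TPM, the 10 genes made up 2.74% and 1.69% of the *cebpb*-/- libraries, 0.464% and 0.537% of *cebpb*+/+, 0.418% and 0.577% of *cebp1*+/+, and 0.197% and 0.295% of *cebp1*-/-. The shares do not have a like base in the 2 tables. The mitochondrial ribosomal RNA gene *mt-rnr2* took 20.5 to 26.8% of TPM in the *cebp1* table and 3.25 to 4.53% in the *cebpb* table. The scaling used for the tests was done within each table, and tests compare libraries of the same table only.

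**Figure D1:**
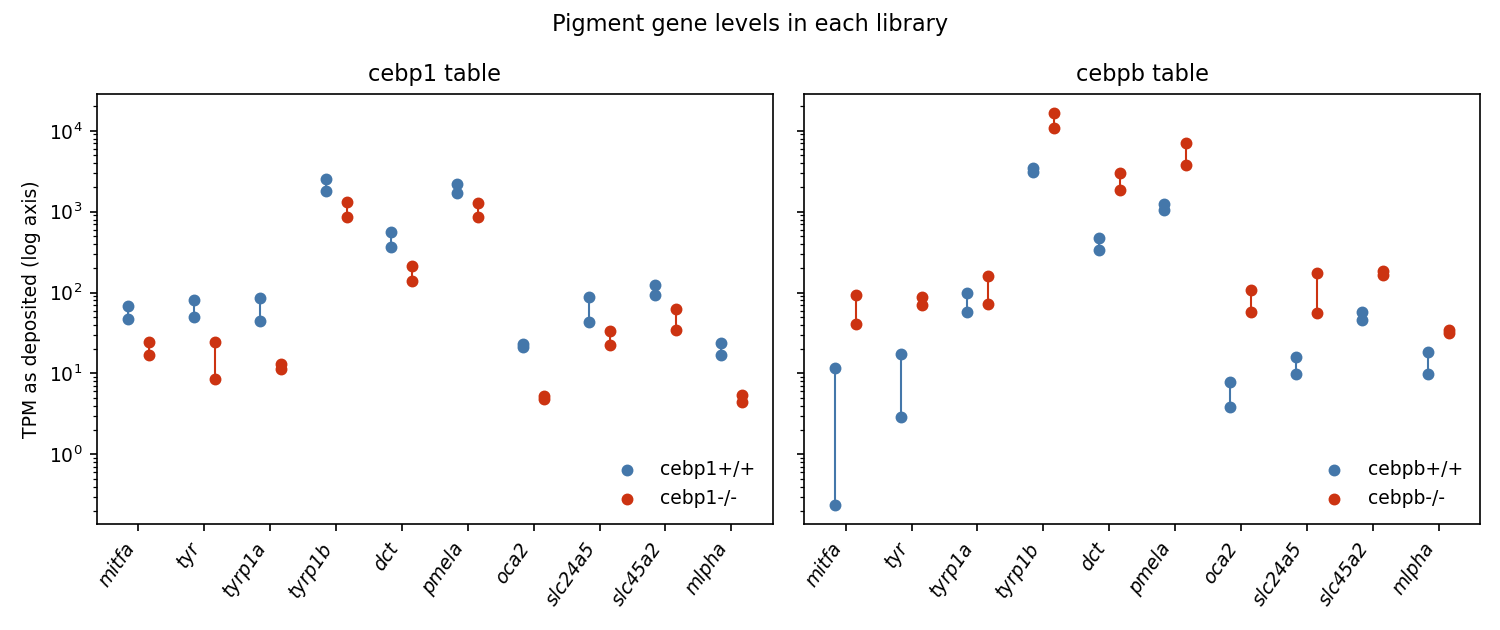
Level of each of the 10 pigment genes (TPM, log axis) in each of the 8 libraries, as points by genotype, with a line joining the 2 libraries of a group. For *cebpb*, 9 of the 10 genes lie higher in both mutant libraries than in both wild-type libraries (30.9% of all genes tested), and *tyrp1a* overlaps. In the *cebp1* table all 10 lie lower in both mutant libraries before scaling (61% of all genes tested).

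The transcription factor came first in the order of the pathway. *Mitfa*, which directs neural crest cells to the melanophore fate, stood at 0.238 and 11.6 TPM in *cebpb*+/+ against 94.4 and 40.5 TPM in *cebpb*-/-. The mean was 11.4-fold higher in the mutant, but the wild-type libraries differed 48.8-fold from each other, so this fold rests on very low values. Between the *cebp1* genotypes *mitfa* was 47.7 and 67.7 TPM in wild type and 17.0 and 24.4 TPM in *cebp1*-/-.

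Among the enzymes, *tyr* encodes tyrosinase, which catalyses the rate-limiting step of melanin synthesis. It was 2.89 and 17.6 TPM in *cebpb*+/+ against 88.3 and 71.1 TPM in *cebpb*-/-, with both mutant libraries clear of both wild-type libraries. The means differed 7.79-fold, and the wild-type libraries 6.07-fold between themselves. *Tyr* in the *cebp1* libraries was 49.5 and 80.6 TPM in wild type and 8.52 and 24.3 TPM in *cebp1*-/-.

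*Tyrp1b*, a tyrosinase-related protein of the melanosome membrane, had the highest mean level of the 10 genes. It was 3088 and 3477 TPM in *cebpb*+/+ against 16552 and 10750 TPM in *cebpb*-/-, a difference of 4.16-fold between means against 1.13-fold between the wild-type and 1.54-fold between the mutant libraries. By TPM, a scale corrected for gene length, it was the gene of rank 2 and of rank 8 from the top of all 30838 genes in the *cebpb*-/- libraries, after rank 59 and 53 in *cebpb*+/+. In *cebp1* libraries it stood at 1777 and 2547 TPM in wild type and at 860 and 1305 TPM in *cebp1*-/-, at ranks from 65 to 129.

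Its paralog *tyrp1a* differed from the other members. It was 98.5 and 57.1 TPM in *cebpb*+/+ against 161 and 71.4 TPM in *cebpb*-/-, so *cebpb*-/- replicate 2 lay below *cebpb*+/+ replicate 1 and the genotypes overlapped. How reads that match both copies were counted is not given in the sources used here. The *cebp1* libraries held *tyrp1a* at 44.4 and 85.1 TPM in wild type and 11.3 and 13.2 TPM in *cebp1*-/-, a 5.29-fold difference of means and the largest of the 10 genes in that table.

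*Dct* encodes dopachrome tautomerase, which acts between tyrosinase and the final pigment. It was 341 and 468 TPM in *cebpb*+/+ against 3042 and 1863 TPM in *cebpb*-/-, a 6.07-fold difference of means, with replicates within 1.63-fold of each other in each genotype. Its *cebp1* values were 368 and 555 TPM in wild type and 140 and 215 TPM in *cebp1*-/-. No wild-type library overlapped a mutant library in either table, where 30.9% of all genes were higher in *cebpb*-/- and 61% lower in *cebp1*-/- without overlap.

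*Pmela* encodes the protein whose fibrils form the scaffold on which melanin is laid down. It was 1044 and 1240 TPM in *cebpb*+/+ against 6975 and 3783 TPM in *cebpb*-/-, a 4.71-fold difference of means. In *cebpb*-/- replicate 1 it was the gene of rank 12 from the top, and in replicate 2 of rank 39. For *cebp1*, *pmela* was 1718 and 2178 TPM in wild type and 871 and 1266 TPM in *cebp1*-/-, a 1.82-fold difference and the smallest of the 10 genes there.

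The transporters of the melanosome membrane had lower levels. *Oca2*, a melanosomal transport protein whose loss causes albinism in humans, was 3.82 and 7.75 TPM in *cebpb*+/+ against 108 and 57.5 TPM in *cebpb*-/-, and its 14.3-fold difference of means was the largest of the 10 genes. *Slc24a5*, a cation exchanger altered in the pale *golden* zebrafish, was 9.82 and 16.1 TPM in *cebpb*+/+ against 176 and 56.3 TPM in *cebpb*-/-. *Slc45a2*, the transporter altered in *albino* zebrafish, was 45.2 and 56.9 TPM in *cebpb*+/+ against 184 and 163 TPM in *cebpb*-/-. For all 3 transporters the mutant libraries were clear above the wild-type libraries, where 30.9% of all genes were. The means differed 8.95-fold for *slc24a5* and 3.40-fold for *slc45a2*. The 2 *cebpb*-/- libraries differed most for *slc24a5*, by 3.13-fold, and replicate 1 was the higher.

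In the *cebp1* libraries the transporters lay the other way round. *Oca2* was 21.3 and 23.0 TPM in wild type and 4.80 and 5.25 TPM in *cebp1*-/-, with replicates within 1.09-fold of each other. *Slc24a5* was 42.8 and 87.9 TPM against 22.7 and 33.2 TPM, and *slc45a2* was 93.7 and 123 TPM against 34.0 and 62.6 TPM. Each gene was lower in both *cebp1*-/- libraries than in both wild-type libraries, where 61% of all genes were and 38.3% of those averaging 20 TPM or more. For *slc24a5* the gap between the genotypes was smaller than that between the wild-type libraries. After the scaling described below, the log2 differences were -0.98 for *oca2*, -0.09 for *slc24a5* and -0.15 for *slc45a2*.

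*Mlpha* encodes melanophilin, the adaptor that in mice links melanosomes to the motor that holds them in the cell periphery. It was 9.85 and 18.2 TPM in *cebpb*+/+ against 34.3 and 31.7 TPM in *cebpb*-/-, a 2.35-fold difference of means. For *cebp1*, it was 17.0 and 23.5 TPM in wild type and 4.38 and 5.40 TPM in *cebp1*-/-. It was the lowest or next to lowest of the 10 genes in 6 libraries, all but the *cebpb*+/+ pair.

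The order of levels was steady at the top. *Tyrp1b*, *pmela* and *dct* held the top 3 places in every library, in that order except in *cebp1*-/- replicate 1, where *pmela* at 871 TPM and *tyrp1b* at 860 TPM changed places. *Tyrp1b* and *pmela* are neighbours that did not differ beyond their replicate spread in either *cebp1* group. In the *cebpb* table they were apart: *tyrp1b* made up 60.4 to 66.5% of the summed level there and *pmela* 22.4 to 25.4%, whereas in the *cebp1* table *tyrp1b* made up 42.5 to 44.2% and *pmela* 37.7 to 44.1%. Below *dct*, *slc45a2* held place 4 in 6 libraries and *tyrp1a* in the 2 *cebpb*+/+ libraries, and the ranges of *mitfa*, *tyr*, *tyrp1a* and *slc24a5* overlapped each other in *cebp1*+/+ and in *cebpb*-/-.

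Counted over the list, 9 of the 10 genes were higher in both *cebpb*-/- libraries than in both wild-type libraries, by TPM as deposited. Over all 11478 genes tested in that table the share was 30.9%, and among the 3553 genes averaging 20 TPM or more it was 42.1%. Since this contrast was used in the choice of the genes, nothing is read from the count. The folds of the means ran from 1.50 for *tyrp1a* to 14.3 for *oca2*, with a median of 5.39. Within the *cebpb*-/- group replicate 1 was higher than replicate 2 for all 10 genes, and with *cebpb*-/- replicate 1 or 2 left out the median log2 fold change of the genes after scaling was 1.46 or 2.16 against 1.82 with both.

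The level of *eslec* transcripts also differed between the libraries. *Eslec*, which the tables list as *si:dkeyp-75b4.10*, was 36138 and 31898 TPM in *cebpb*+/+ against 11658 and 17653 TPM in *cebpb*-/-. In the other table it was 11840 and 14617 TPM in *cebp1*+/+ against 20720 and 24085 TPM in *cebp1*-/-. It was lower in the genotype in which the pigment genes were high, in both tables. The summed level of the pigment genes was 12.8% and 16.8% of that of *eslec* in *cebpb*+/+ and 235% and 95.7% in *cebpb*-/-. It was 35.3% and 39.5% in *cebp1*+/+ and 9.52% and 12.3% in *cebp1*-/-. In *cebpb*-/- replicate 1 the 10 pigment genes together therefore outweighed the gene that marks the sorted cells. The paper reports from ChIP-Seq that Cebpβ, the product of *cebpb*, binds the promoter of *eslec*. That Cebpβ raises *eslec* is reported there from RNA-Seq of sorted *cebpb*-/- and wild-type larval cells. This is the comparison read here, so it is not separate evidence on the *eslec* level. In *cebpb*-/- a lower *eslec* level per cell and fewer eosinophils cannot be told apart, and ratios to *eslec* carry both. Of the targeted genes, *cebp1* was listed at 0 in all 8 libraries and checks no label, and *cebpb* was 6360 and 5716 TPM in *cebpb*+/+ against 2928 and 1480 TPM in *cebpb*-/-.

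The libraries of the tables differed in kind. Between 87.2 and 88.1% of genes were above 0 in the *cebp1* table and between 39.3 and 50.3% in the *cebpb* table, and replicates correlated at 0.832 to 0.906 across genes (log2 scale, genes not being independent). The median gene of the *cebp1* table stood at 6.95 and 5.43 TPM in wild type and 2.19 and 2.70 TPM in *cebp1*-/-. This low-level signal was thus higher in the *cebp1*+/+ libraries, the libraries with the higher pigment gene levels. Its part in the pigment gene levels was not tested.

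The *cebp1* comparison asked whether the pigment genes differed between the sorted cells of *cebp1*-/- and wild type. By TPM as deposited all 10 were lower in both *cebp1*-/- libraries, by 1.82-fold to 5.29-fold between means, with a median of 2.70-fold. Over all 25203 genes tested 61% were lower without overlap, among the 2940 genes averaging 20 TPM or more 38.3%, and among the 215 genes averaging 300 TPM or more, where *tyrp1b*, *pmela* and *dct* belong, 17.7%. All of the 10 but *oca2* and *mlpha* average 20 TPM or more in this table. The minimum of 300 TPM was chosen after the values were seen. The share of genes lower in *cebp1*-/- therefore depended on the level of the genes with which the pigment genes were compared.

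After the libraries of each table were scaled to each other by the median of ratios, a step that sets the typical gene equal between libraries, the differences shrank. By limma on log2(scaled TPM + 1), 0 of the 10 genes passed an adjusted p of 0.05 and 2 had an unadjusted p under 0.05, beside 1.28% of all genes called higher and 0.127% called lower, and 9.7% higher and 4.91% lower at the unadjusted threshold. The 2 were *tyrp1a*, with a mutant minus wild-type log2 difference of -1.22 (SE 0.47 and adjusted p = 0.286), and *oca2*, with -0.98 (SE 0.41 and adjusted p = 0.335). *Tyr* had -1.02 (SE 0.54) and *mlpha* -0.88 (SE 0.45), with adjusted p by limma of 0.438 and 0.419. The other 6 lay between -0.40 for *mitfa* and 0.19 for *pmela*, with adjusted p from 0.697 to 0.950. The median of the 10 genes was -0.36, against -0.06 over all genes and 0.84 over genes averaging 20 TPM or more. After scaling, 3 genes, *tyrp1a*, *oca2* and *mlpha*, stayed lower without overlap, where the share was 23.3% of all genes and 7.31% of those averaging 20 TPM or more. Of these 3 only *tyrp1a* averages 20 TPM or more in this table, so the share of 7.31% applies to it alone.

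The direction of the most abundant pigment genes in the *cebp1* comparison turned with the scaling. *Tyrp1b* was at 0.06 and *pmela* at 0.19 on the log2 scale after scaling on all genes, but at -1.01 and -0.88 by TPM as deposited and at -1.09 and -0.96 when the scaling used only genes averaging 50 TPM or more. As deposited, all 10 genes were between -0.88 and -2.24, with a median of -1.41 against -0.90 over all genes, with adjusted p by limma from 0.0685 to 0.126 and 0 called, where 0.114% of all genes were called lower. Relative to *eslec* in the same library, a scale chosen after seeing the data, they were between -1.64 and -2.97, with adjusted p from 0.0270 to 0.0276 and 10 of 10 called, where 38.9% of all genes were called lower. With 2 libraries a group, an exact permutation test of a single gene cannot go below p = 0.333. The p-values of limma rest on the spread between libraries, each its own pool, sort and amplification, with the variance partly shared across genes.

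**Figure D2:**
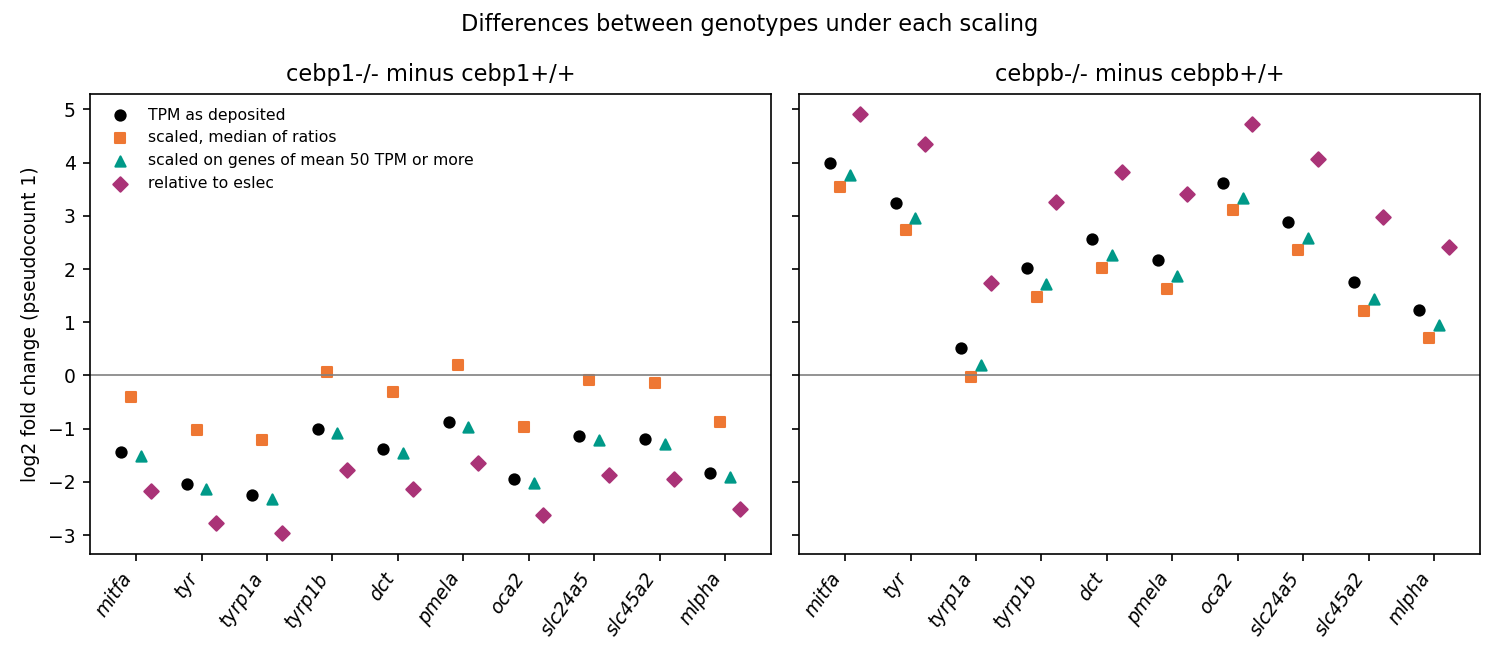
Log2 fold change of each pigment gene, mutant against wild type, in the *cebp1* and *cebpb* tables under 4 scalings of the TPM (as deposited, median of ratios on all genes, on genes averaging 50 TPM or more, and relative to *eslec*). In *cebp1*-/- the points of *tyrp1b* and *pmela* lie above 0 only after scaling on all genes, at 0.06 and 0.19, and in *cebpb*-/- the point of *tyrp1a* lies at -0.03 after that scaling and above 0 under the other 3.

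In the *cebpb* comparison the pigment genes were higher in the mutant under each scaling, apart from *tyrp1a*. After scaling, the log2 fold changes were 3.55 for *mitfa*, 3.10 for *oca2*, 2.72 for *tyr*, 2.35 for *slc24a5*, 2.02 for *dct*, 1.62 for *pmela*, 1.47 for *tyrp1b*, 1.21 for *slc45a2* and 0.71 for *mlpha*. That of *tyrp1a* was -0.03 after scaling and 0.51 as deposited. After scaling 9 of the 10 genes, all but *tyrp1a*, were higher without overlap, where 21.1% of all genes were. The median over the 10 genes was 1.82 after scaling and 2.37 as deposited, against -0.03 and 0.40 over all genes tested. Relative to *eslec* all 10 genes were higher in both mutant libraries, by 3.96-fold to 35.9-fold between means, where 50.7% of all genes were, and 77.6% of those averaging 20 TPM or more. In this table limma called 0 of 11478 genes in either direction, that is 0%, with 704 (6.13%) higher and 924 (8.05%) lower at an unadjusted p under 0.05.

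**Figure D3:**
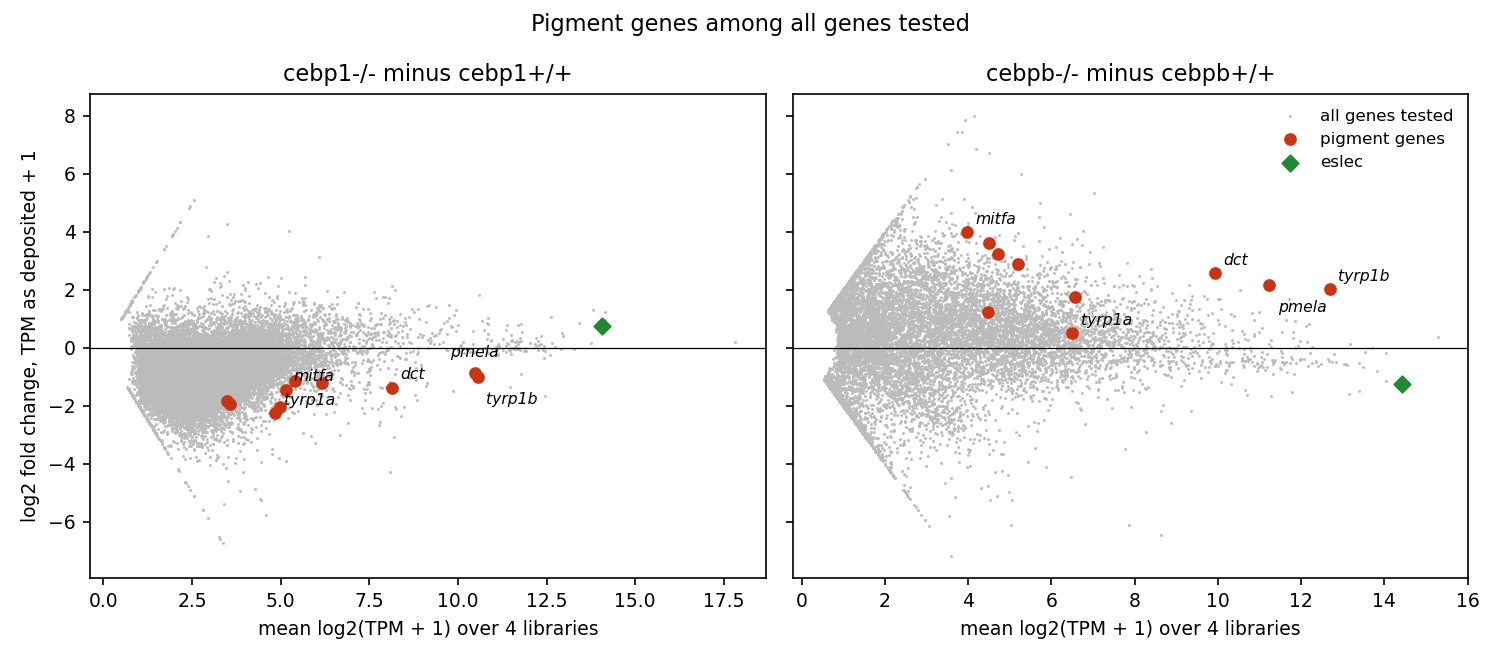
Log2 fold change, mutant against wild type, of every gene tested against its mean level, both on log2(TPM + 1) of the values as deposited, in the *cebp1* and *cebpb* tables, with the 10 pigment genes as red circles and *eslec* as a green diamond. For *cebpb* the median of the pigment genes is 2.37 against 0.40 over all genes, and for *cebp1* it is -1.41 against -0.90.

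Other genes of the melanosome were read beside the 10. Of a list of 21 genes of melanosome proteins and melanophore receptors 18 were listed. In the *cebpb* libraries 14 of them passed the filter on low values. Of these, 11 were higher in both *cebpb*-/- libraries (background 30.9%) and 0 lower. By limma after scaling 0 were called, with 8 higher at an unadjusted p under 0.05, beside 6.13% of all genes. However, 2 of the 14 passed only through *cebpb*-/-, where they are high, and both are among the 11 and among the 8. The list was also chosen with earlier results of these data known, so the 11 and the 8 are given as counts alone. *Mlana*, a melanosome protein, was 606 and 755 TPM in *cebpb*+/+ against 2061 and 1440 TPM in *cebpb*-/-. *Gpr143*, a receptor of the melanosome membrane, was 38.2 and 73.9 TPM against 211 and 191 TPM, and the tetraspanin gene *tspan36* 332 and 531 TPM against 1120 and 977 TPM. *Trpm1b*, an ion channel gene of melanophores, was an exception, at 57.4 and 78.5 TPM in wild type and 268 and 30.7 TPM in *cebpb*-/-. For *cebp1*, 13 of the 15 genes tested were lower without overlap as deposited, beside 61% of all genes, and by limma after scaling 0 were called, with 1 higher and 2 lower at an unadjusted p under 0.05.

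General organelle genes lay on both sides. The list of subunits of the complexes that build lysosome-related organelles in many cell types had 20 genes tested in the *cebpb* table, of which 6 were higher and 4 lower without overlap as deposited, where 30.9% and 15.4% of all genes were, with a median log2 fold change of -0.23 after scaling. *Bloc1s6*, one of them, was 288 and 250 TPM in *cebpb*+/+ against 222 and 327 TPM in *cebpb*-/-. Of the 20 genes, 1 passed the filter on low values only through *cebpb*-/- and 1 only through wild type. For *cebp1*, 9 of 20 were lower and 0 higher without overlap as deposited, where 61% and 5.11% of all genes were. After scaling 10 were higher and 2 lower without overlap, where 23.1% and 23.3% of all genes were, with a median log2 fold change of 0.55. By limma after scaling 0 were called, with 1 higher and 0 lower at an unadjusted p under 0.05, beside 9.7% and 4.91% of all genes.

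Genes of the neural crest were read too, from a list chosen with earlier results of these data known, so its counts are given as counts alone. Of 9 listed, 4 passed the filter in the *cebpb* table and 3 were higher without overlap, where 30.9% of all genes were and 42.1% of those averaging 20 TPM or more. *Tfap2e* was 29.2 and 57.3 TPM in wild type and 402 and 116 TPM in *cebpb*-/-, *tfap2a* 17.1 and 20.4 TPM against 117 and 98.4 TPM, and *sox10*, which acts upstream of *mitfa*, 18.0 and 7.73 TPM against 231 and 44.6 TPM. *Foxd3* overlapped, at 23.8 and 5.69 TPM against 9.81 and 29.0 TPM, and *crestin* did not exceed 2.67 TPM in any of the 4 libraries. *Snai1b*, *sox9b*, *erbb3b* and *zeb2a* did not exceed 0.165 TPM there. For *cebp1*, all 8 genes tested were lower without overlap as deposited, where 61% of all genes were, and limma called 0 after scaling, with 1 at an unadjusted p under 0.05. Of these 8 genes, 1 passed the filter only through wild type.

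The genes listed for the retinal pigment epithelium had low and uneven values in the *cebpb* table. The highest was the gap junction gene *cx43*, at 18.8 and 28.3 TPM in wild type and 12.9 and 0 TPM in *cebpb*-/-, a level near that of *mlpha* in wild type. *Rgra*, a retinal opsin gene, was listed at 0 and 12.7 TPM in wild type and at 0 in both *cebpb*-/- libraries, its paralog *rgrb* at 0.166 and 0 TPM against 8.23 and 0 TPM, and *best1* did not exceed 3.08 TPM. Of genes named after their values were seen, *rpe65a*, the isomerase of the visual cycle, was listed at 0 in 3 libraries and at 0.243 TPM in *cebpb*-/- replicate 1, *mitfb* did not exceed 0.0618 TPM, and *rdh5* was listed at 0 in all 4. The summed level of the 10 listed genes was 18.9 and 44.1 TPM in *cebpb*+/+ against 23.2 and 0.134 TPM in *cebpb*-/-. A value of 0 in these files does not show that a gene is absent: *hps4*, a general organelle gene at 55.1 TPM in *cebpb*-/- replicate 1, was also listed at 0 in replicate 2. The part of this tissue in the pigment gene levels was not tested. Of the 4 genes tested, 0 were higher and 1 lower without overlap, where 30.9% and 15.4% of all genes were, and 1 passed the filter only through *cebpb*-/- and 2 only through wild type. The *cebp1* sum was 129 and 73.9 TPM in wild type and 24.5 and 39.5 TPM in *cebp1*-/-, and limma called 0 of 8, with 0 at an unadjusted p under 0.05.

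The other pigment cells of the neural crest gave mixed values. Of the iridophore list, the cells of reflecting purine crystals, 6 genes passed the filter in the *cebpb* table and 2 were higher without overlap, where 30.9% of all genes were. *Pnp4a*, a purine nucleoside phosphorylase gene of these cells, was 40.6 and 59.9 TPM in wild type and 171 and 354 TPM in *cebpb*-/-, but *alx4a* was listed at 0 in all 4 libraries and *ltk*, the receptor that iridophores need, did not exceed 0.0723 TPM. Of the xanthophore list, the yellow cells, 4 passed and 3 were higher without overlap, beside the same 30.9%. *Gch2*, an enzyme of pteridine synthesis, was 318 and 398 TPM against 663 and 873 TPM and *slc2a15b* 183 and 162 TPM against 767 and 406 TPM, while *aox5*, *xdh*, *pax7a* and *bco1* did not exceed 0.132 TPM. For *cebp1*, 7 of 9 iridophore and 11 of 11 xanthophore genes were lower without overlap as deposited, where 61% of all genes were, and limma called 0 of them after scaling, with 1 and 2 at an unadjusted p under 0.05.

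**Figure D4:**
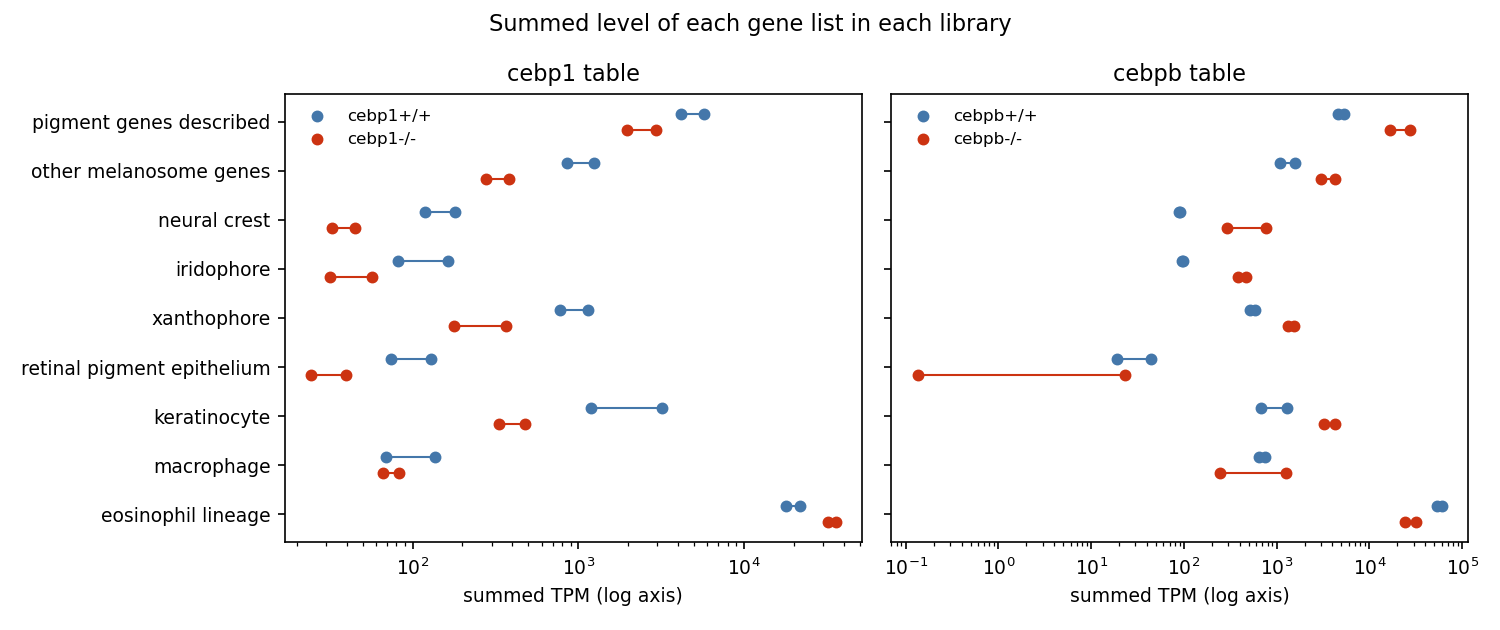
Summed level (TPM, log axis, a different range in each panel) of the 10 pigment genes and of 8 other gene lists in each of the 8 libraries, with a line joining the 2 libraries of a group. The pigment genes lie at 16887 and 27415 TPM in *cebpb*-/- against 4642 and 5370 TPM in *cebpb*+/+, and the retinal pigment epithelium list lies at or below 129 TPM in every library.

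Markers of skin were read as well, since whole larvae were digested. The summed level of 18 keratinocyte genes was 671 and 1284 TPM in *cebpb*+/+ against 3236 and 4246 TPM in *cebpb*-/-, with 12, 4, 3 and 4 of the genes listed at 0. Of the 14 that passed the filter, 3 passed only through the *cebpb*-/- libraries, where they are high, and 2 only through wild type, so the 8 that were higher without overlap (30.9% of all genes) are given as a count alone. *Icn*, a calcium-binding protein gene of surface keratinocytes, was 514 and 668 TPM in wild type and 1695 and 2119 TPM in *cebpb*-/-. The keratin gene *krt4* was 3.34 and 18.9 TPM against 178 and 498 TPM. Other genes of the list overlapped. Among them *icn2* was 0 and 277 TPM against 134 and 25.4 TPM. *Krt17* was 0 and 12.96 TPM against 5.40 and 0.171 TPM. *Agr1*, at 0 and 32.8 TPM, and *anxa1c*, at 0 and 15.2 TPM in wild type, were listed at 0 in both *cebpb*-/- libraries. In *cebpb*-/- the keratinocyte sum was higher in replicate 2 and the pigment sum in replicate 1. Their *cebp1* sum was 1199 and 3221 TPM in wild type and 332 and 478 TPM in *cebp1*-/-. All 15 genes tested, 2 of which passed only through wild type, were lower without overlap as deposited, where 61% of all genes were. After scaling limma called 1, the keratin gene *krt91* (adjusted p = 0.0427), where 0.127% of all genes were called lower. At an unadjusted p under 0.05 by limma 8 of the 15 were lower and 0 higher, beside 4.91% and 9.7% of all genes. *Icn2*, at 20.8 and 388 TPM in wild type and 0 in both *cebp1*-/- libraries, is among the 8 and passed the filter only through wild type. The 15 and the 8 are therefore given as counts alone. The median log2 fold change of the 15 after scaling was -1.66, where that of the 10 pigment genes was -0.36. The -1.66 includes the genes that passed only through wild type. The part of skin or other tissue in the pigment gene levels was not tested.

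The eosinophil genes differed with the scaling. The summed level of 12 genes of the lineage, of which *eslec* was the highest, was 60580 and 53633 TPM in *cebpb*+/+ against 24424 and 32169 TPM in *cebpb*-/-. It was 17952 and 21802 TPM in *cebp1*+/+ against 32269 and 35647 TPM in *cebp1*-/-. As deposited, 1 gene was higher and 7 were lower without overlap in *cebpb*-/-, where 15.4% of all genes were lower and 39.7% of those averaging 300 TPM or more. The higher gene was *il1rl1*, at 45.3 and 60.7 TPM in *cebpb*+/+ against 377 and 384 TPM in *cebpb*-/-. *Xbp1* overlapped, at 3626 and 3963 TPM against 3704 and 4252 TPM. Among the lower genes *si:dkey-203a12.2* was 4667 and 2979 TPM against 65.0 and 26.6 TPM, and *si:dkey-77g12.1* 2206 and 1671 TPM against 21.3 and 34.5 TPM. Relative to *eslec* the count turned to 7 higher and 2 lower, where 50.7% of all genes were higher and 6.67% lower. The median log2 fold change was 0.67 against 1.38 over all genes, and *eslec* itself is set equal on this scale. After scaling 1 was higher and 11 were lower without overlap, where 21.1% and 23.6% of all genes were. Of the genes averaging 300 TPM or more 63.8% were then lower. By limma 0 were called after scaling, with 1 higher and 9 lower at an unadjusted p under 0.05, beside 6.13% and 8.05% of all genes. In *cebp1*-/- 9 were higher without overlap as deposited, where 5.11% of all genes were and 47.4% of those averaging 300 TPM or more. Relative to *eslec* 2 were higher and 4 lower, where 0.972% of all genes were higher and 80.6% lower. After scaling limma called 8 higher, where 1.28% of all genes were. All 12 were then higher without overlap, where 23.1% of all genes were and 88.4% of the genes averaging 300 TPM or more. This list was assembled mostly from genes the study names for these cells, some from the same libraries, so its direction is not independent of them. *Xbp1*, *si:dkey-203a12.2* and *si:dkey-77g12.1* are not named in the study's text.

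The genes whose pattern was most like that of *tyrp1b*, the pigment gene with the highest mean level, were sought by the root mean square difference of log2(TPM + 1), each value taken relative to its table's mean, over all 8 libraries and among 7210 genes. *Pmela* was the nearest at 0.107, *slc45a2* had rank 5 at 0.183 and *dct* rank 25 at 0.247. The 8 nearest genes outside the list were *ociad1* (0.111), *anxa1a* (0.146), *mgat4b* (0.155), *kirrel3b* (0.185), *klf6a* (0.186), *si:ch211-195b13.1* (0.191), *si:ch211-241b2.5* (0.197) and *dusp1* (0.205). *Ociad1* was 26.8 and 27.6 TPM in *cebpb*+/+ against 144 and 82.3 TPM in *cebpb*-/-, and *anxa1a*, an annexin gene that the keratinocyte list also holds, 144 and 192 TPM against 926 and 507 TPM. The correlation of *ociad1* with *tyrp1b* over the 8 libraries was 0.993, a description, since libraries of a group share their genotype and table.

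The remaining pigment genes lay further from *tyrp1b* by this difference, which grows with the size of a fold as well as with another pattern. *Slc24a5* had rank 348, *mlpha* 465, *oca2* 1864, *tyrp1a* 2276, *tyr* 2591 and *mitfa* 4518 of the 7210 genes. These are the members of lower level, all but *tyrp1a* under 20 TPM in the *cebpb*+/+ libraries, and *mitfa* was below 1 TPM in *cebpb*+/+ replicate 1. Their correlations with *tyrp1b* over the 8 libraries were 0.977 for *slc24a5*, 0.972 for *oca2*, 0.931 for *tyr*, 0.890 for *mitfa*, 0.843 for *mlpha* and 0.632 for *tyrp1a*. That of *dct* was 0.997. These too are a description.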

How the data were processed

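Messenger RNA was measured in 8 libraries of about 500 sorted cells each. The authors aligned reads to GRCz11 with STAR, counted them with featureCounts and deposited TPM in 2 tables, for *cebp1* and for *cebpb*, mutant beside wild type. The annotation and the gene lengths behind the TPM are not given in the sources used here. Their DESeq2 test used read counts, which the deposited TPM do not hold, so limma was used. Columns were matched to samples by genotype and replicate number, and 0 per-sample columns were left out.

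Within each table, TPM were scaled by the median of ratios over genes that average 1 TPM or more and are never 0. Scale factors came to 1.64, 1.33, 0.658 and 0.750 in the *cebp1* table and 0.845, 0.907, 1.36 and 1.21 in the *cebpb* table (wild type, then mutant). Genes averaging 1 scaled TPM or more were fitted with limma 3.58.1 (R 4.3.3) on log2(scaled TPM + 1) with a mean-variance trend, genotype alone, two-sided, with Benjamini-Hochberg adjustment over all genes and a threshold of 0.05. All fold changes on the log2 scale include the pseudocount of 1 and understate those of low genes. The fit was run on data simulated from its own model, with normal spread and shifts added to genes of higher level. That run does not check the fit on libraries that depart from the model. Tables and figures were made with Python 3.11.15, pandas 2.3.3 and matplotlib 3.10.9.

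The members and the 14 gene lists beside them were chosen with earlier results of these data known. Genes named are the 10 members, some or all of the 4 genes of each list with the highest mean TPM in the *cebpb* table, the 8 non-members nearest to the leading member, and *eslec*. In addition *ltk*, *alx4a*, *aox5*, *xdh*, *pax7a*, *bco1*, *rpe65a*, *mitfb*, *rdh5*, *crestin*, *hps4*, *krt91*, *il1rl1*, *si:dkey-203a12.2*, *si:dkey-77g12.1* and *mt-rnr2* were named after their values were seen. So were *icn2*, *krt17*, *agr1*, *anxa1c*, *snai1b*, *sox9b*, *erbb3b* and *zeb2a*. All 10 members matched RefSeq by symbol. The alternatives were 2 other pseudocounts, 2 other filters, 2 other scalings, no trend, a replicate block, each library left out, and all 8 libraries in 1 fit; scaling to *eslec* was chosen after seeing the data.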

Additional observations from a re-analysis of the deposited data

How the results depend on the processing

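With 2 libraries a group and no depth in TPM, small differences could not be resolved: the median residual SD on the log2 scale was 0.450 for *cebp1* and 0.864 for *cebpb*. The members called in *cebp1*-/- stayed at 0 under every setting run except relative to *eslec*, where 10 were called. In *cebp1*-/- *tyrp1b* and *pmela* turned from 0.06 and 0.19 to -1.01 and -0.88 as deposited, -1.09 and -0.96 with scaling on genes of at least 50 TPM, and -1.77 and -1.64 relative to *eslec*. With each library left out in turn, the log2 fold changes in *cebp1*-/- ran from -0.33 to 0.50 for *tyrp1b*, -0.12 to 0.54 for *pmela*, -0.78 to 0.018 for *mitfa*, -0.74 to 0.16 for *dct*, -0.73 to 0.59 for *slc24a5* and -0.47 to 0.22 for *slc45a2*, and *tyrp1a*, *tyr*, *oca2* and *mlpha* stayed below 0. In *cebpb*-/- *tyrp1a* turned from -0.03 to 0.51 as deposited, 0.20 with scaling on genes of at least 50 TPM, 1.74 relative to *eslec*, and -0.52 to 0.49 with a library left out. The members' median there was 2.37 as deposited and 3.61 relative to *eslec*, and 1.46 to 2.16 with a library left out. A scaling divides every gene of a library by the same factor, so the turns between scalings follow from their factors. Which scaling is nearer to the levels in the cells was not tested, nor was the cause of the differences between libraries.

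The count of all genes called in *cebp1*-/-, 355, became 212 with a pseudocount of 0.1, 46 with no filter, 724 with a filter at 5 scaled TPM, 45 as deposited, 40 with scaling on genes of at least 50 TPM, 10109 relative to *eslec*, and 0 with no trend or with any library left out. In *cebpb*-/- 0 became 10 with a pseudocount of 5, 12 with a filter at 5 scaled TPM and 668 with all 8 libraries in 1 fit. Of the 355 calls 323 were higher in *cebp1*-/- and 32 lower, but as deposited 16 were higher and 29 lower, and relative to *eslec* 38 and 10071. Same-numbered libraries did not deviate together (correlation 0.008 for *cebp1*, -0.019 for *cebpb*), so the numbers only name the libraries. With the replicate number as a block 387 genes were called in *cebp1*-/- and 29 in *cebpb*-/-, and the members' median in *cebpb*-/- was unmoved at 1.82.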

Other observations

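Genes of some other tissues of the larva were high in single libraries. Haemoglobin gene *hbae3*, of red blood cells, was 834 TPM in *cebpb*+/+ replicate 2 and at or below 7.90 TPM in the other 3 libraries of that table. Rhodopsin gene *rho*, of rod photoreceptors, was 580 TPM in *cebp1*+/+ replicate 2 and at or below 6.98 TPM in the other 3 of its table, and the summed level of 13 photoreceptor genes in *cebpb*-/- was 37.9 and 17.4 TPM. Actin gene *actc1b*, of muscle, was 507 TPM in *cebp1*-/- replicate 1, the library with the lowest pigment sum, and at or below 66.6 TPM in the other 3. In *cebpb*-/- it was 110 and 0.940 TPM.

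Among blood cells, the neutrophil list had 3 genes tested in the *cebpb* table, 0 higher and 2 lower without overlap as deposited, where 30.9% of all genes were higher and 15.4% lower. The macrophage list had 5, with 0 higher and 2 lower, and 1 of the 5 passed the filter on low values only through wild type. The macrophage sum was 740 and 638 TPM in *cebpb*+/+ against 1259 and 246 TPM in *cebpb*-/-. Of the erythrocyte list 7 were tested, 0 higher and 1 lower, of the skeletal muscle list 6, 3 higher and 0 lower, and of the photoreceptor list 3, 1 higher and 0 lower, beside the same shares of all genes. Of these 3 lists 3, 3 and 2 of the genes tested passed the filter on low values through a single genotype. Of 12 lens genes 2 were tested, and these 2 passed the filter only through *cebpb*-/-. Of them *cryaa*, a lens crystallin gene, was listed at 0 in both *cebpb*+/+ libraries against 7.04 and 15.2 TPM in *cebpb*-/-.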
